A study of Homo sapiens with 4 samples.

Results

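Kinesins are motor proteins that use ATP to move along microtubules or to take them apart, and their genes were followed here in a human lung carcinoma line exposed to ginseng nanoparticles. The genes were chosen by name: protein-coding genes whose symbol is KIF followed by a number, with at most a letter and a digit after it. The rule found 39 genes among 61541 gene rows, and they were divided by textbook role into 13 mitotic, 13 transport and 13 other kinesins. RNA came from H1299 cells, a line established from a non-small cell lung carcinoma, grown in Dulbecco's modified Eagle medium with fetal bovine serum. The control group of 2 libraries was treated with PBS (phosphate-buffered saline), and the other group of 2 libraries with the ginseng nanoparticle. All 4 libraries share the cell line, the medium and the polyadenylated RNA preparation. The labels give no dose and no exposure time, and they do not say whether these cells met particles of seed, leaf, stem or root, all of which the study made. The study's question for the RNA was which migration-related transcripts differ with the particles. Separate cultures are not stated for the replicates, so a p-value here reflects the spread of 4 libraries that may be technical repeats.

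Mitotic kinesins build the spindle, move and align chromosomes and complete cytokinesis, and their transcripts are known to peak late in the cell cycle. Transport kinesins carry vesicles, organelles and mRNAs outward along microtubules, and kinesin-1 also brings mitochondria and adhesion components towards the edge of migrating cells. The remaining kinesins act on microtubule ends, in cilia or in signalling, or are little studied. Of 5 markers listed for a carcinoma line, VIM, KRT18 and KRT8 were abundant (587 to 2390 CPM, counts relative to each library's scaled total). EPCAM and CDH1 had 1 to 8 counts in a library. VIM, KRT18 and KRT8 all passed the test described further on, lower with nanoparticles (edgeR adjusted p = 0.0137, 0.000526 and 0.0239). With the trend of fold change with transcript length removed, KRT18 passed (0.00995) and VIM (0.129) and KRT8 (0.0957) did not. Summed markers of other cells were near 0: 5 leukocyte markers reached 0.629 and 0.716 CPM in PBS and 0.840 and 0.764 CPM with nanoparticles, 3 endothelial markers 0.358 to 0.760 CPM, 4 fibroblast markers 1.13 to 1.25 CPM and 2 red cell markers 0 to 0.120 CPM, with PTPRC and HBB at 0 in all 4 libraries. Gene counts per library ran from 22252686 to 24979081, and kinesins took 0.286% (Wilson 95% interval 0.283% to 0.288%) and 0.280% (0.277% to 0.282%) of them in PBS and 0.290% (0.288% to 0.292%) and 0.295% (0.293% to 0.297%) with nanoparticles. These intervals cover counting error only. Mitochondrially encoded genes took 0.310% and 0.428% in PBS and 0.371% and 0.512% with nanoparticles, so the groups overlapped in that measure. Between libraries of the same replicate number, the nanoparticle library had the higher share. What part these measures have in the kinesin results was not tested.

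The promoters of these genes held cell cycle motifs in different shares by role. Many genes of the late cell cycle carry a CCAAT box and, close to the start, a cell cycle homology region, which is bound by the DREAM complex and its relatives. Windows from 120 bases before to 30 bases after the RefSeq start (build GRCh38.p14) are shown for the mitotic kinesins KIF18B, KIF11 and KIF23, for KIF4A with its intronless copy KIF4B, and for the abundant transport kinesin KIF1C as a contrast. They lie at chr17:44947744-44947893 (minus strand), chr10:92593010-92593159, chr15:69414229-69414378, chrX:70289984-70290133, chr5:155013635-155013784 and chr17:4997830-4997979 (all others plus strand), in that order. Capitals mark CCAAT or its reverse ATTGG, and TTTGAA or its reverse TTCAAA.
KIF18B: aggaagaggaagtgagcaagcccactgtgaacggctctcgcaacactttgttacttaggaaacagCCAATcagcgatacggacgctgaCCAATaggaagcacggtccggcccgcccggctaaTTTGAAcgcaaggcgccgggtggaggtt
KIF11: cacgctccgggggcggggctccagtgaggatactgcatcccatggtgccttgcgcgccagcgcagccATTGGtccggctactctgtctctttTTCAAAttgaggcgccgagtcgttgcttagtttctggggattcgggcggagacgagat
KIF23: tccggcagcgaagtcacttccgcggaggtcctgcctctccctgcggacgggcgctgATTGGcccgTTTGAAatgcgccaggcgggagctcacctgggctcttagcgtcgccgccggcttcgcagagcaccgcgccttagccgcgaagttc
KIF4A: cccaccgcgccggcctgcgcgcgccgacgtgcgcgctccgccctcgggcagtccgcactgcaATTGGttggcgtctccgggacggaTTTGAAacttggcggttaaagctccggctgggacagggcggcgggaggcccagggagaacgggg
KIF4B: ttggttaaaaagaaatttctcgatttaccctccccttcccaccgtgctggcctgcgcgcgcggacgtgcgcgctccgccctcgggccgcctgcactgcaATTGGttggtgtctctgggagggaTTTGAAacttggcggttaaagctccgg
KIF1C: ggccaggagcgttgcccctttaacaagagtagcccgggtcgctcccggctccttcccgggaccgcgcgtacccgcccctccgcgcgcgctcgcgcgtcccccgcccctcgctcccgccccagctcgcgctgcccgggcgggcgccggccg

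Over the full promoter windows of 300 bases, on both strands, TTTGAA was found for 9 of 13 mitotic kinesins (69.2%), 1 of 11 transport kinesins (KIF5B) and 0 of 9 other kinesins with an entry. Among all 27305 genes in the RefSeq promoter table, 18.2% had it in at least 1 window. CCAAT was found for 10 of 13 mitotic kinesins (76.9%), 4 of 11 transport and 3 of 9 other kinesins, against 39.7% of all genes. Both motifs, which can share at most 1 end base, were found for 8 mitotic kinesins (61.5%) against 7.26% of all genes. The transport kinesin KIF5B held both as well. Of the mitotic kinesins, KIF2B and KIF2C held neither motif, and KIF20A and KIF22 held CCAAT only. Counted by window, TTTGAA was in 64.3% of 14 mitotic windows and 15.2% of 35116 windows in all. KIF11, KIF14, KIF4A and KIF4B had the 2 motifs with their starts 23 to 25 bases apart, KIF18A and KIF18B 34 to 35 bases apart, KIF23 9 and KIF20B 122 bases apart, so no pair shared a base. KIF5A, KIF13B, KIF19, KIF21B, KIF26B and KIF27 were not in the table. A match describes letters only, since no measurement here was made on promoters.

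Levels varied far more between kinesins than between treatments. Among genes with enough counts to be tested, 11 mitotic kinesins lay between 44.3 and 233 CPM, 13 transport kinesins between 2.25 and 391 CPM, and 10 other kinesins between 0.440 and 132 CPM in single libraries. Per kilobase of the principal transcript (GENCODE 29), the mitotic group made up 63.9% to 64.5% of summed kinesin CPM per kilobase in the 4 libraries, the transport group 24.2% to 24.5% and the other group 11.2% to 11.6%. On that scale KIF22, a motor of chromosome arms, was the most abundant (90.7 CPM per kilobase, mean of 4 libraries), followed by the microtubule depolymerase KIF2C (79.8). Then came the cytokinesis motors KIF23 (53.5 to 57.3 over the libraries) and KIF20A (49.8 to 53.9), whose ranges overlapped. KIF2A (49.5), KIF1C (48.9), KIF4A (48.1) and KIF18B (47.6) followed within a narrow band. KIF1C had the most CPM of any kinesin, 378 to 391, and ranked 6 once its transcript of 7919 bases was taken into account.

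**Figure D1:**
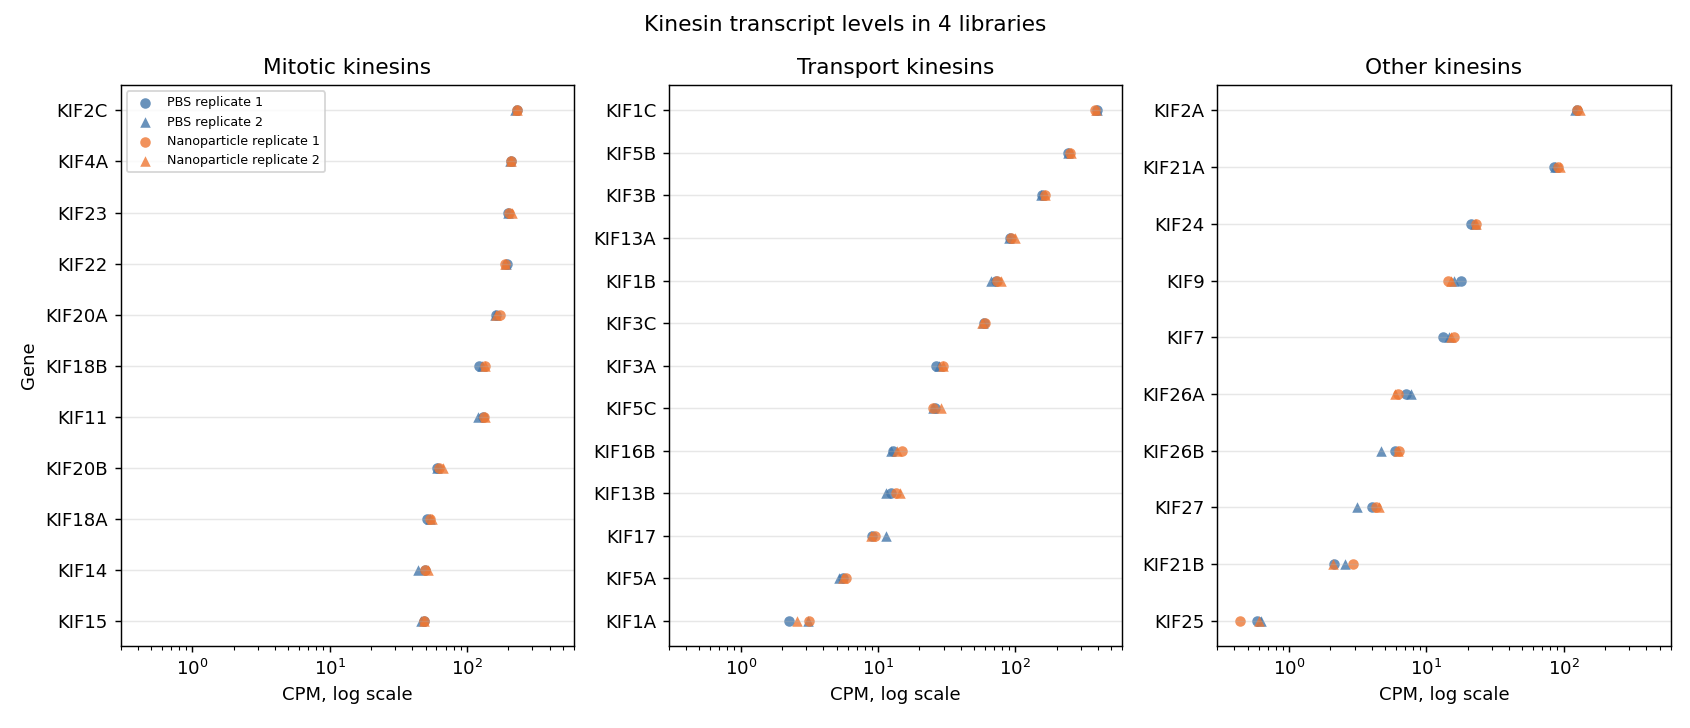
CPM on a log axis for the 34 tested kinesin genes in each of the 4 libraries, with PBS in blue and nanoparticle in orange, circles for replicate 1 and triangles for replicate 2. The points of a gene nearly coincide, while genes span 0.440 to 391 CPM; tested mitotic kinesins start at 44.3 CPM.

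Within most families a single member or a pair carried the signal. In kinesin-1, the conventional cargo motor, KIF5B made up 89.5% to 90.1% of CPM per kilobase over the 4 libraries, with the neuronal forms KIF5C at 7.71% to 8.49% and KIF5A at 1.96% to 2.15%. In kinesin-2, which works in cilia and on vesicles, KIF3B held 58.3% to 60.3%, KIF3C 24.1% to 25.6%, KIF3A 9.77% to 10.6% and KIF17 5.04% to 6.63%. KIF3A and KIF3B pair in the motor, yet KIF3B was at 26.2 and KIF3A at 4.49 CPM per kilobase. In kinesin-3 the vesicle motor KIF1C held 57.9% to 61.1% and the endosome motor KIF13A 18.6% to 19.6%, while the neuronal KIF1A held 0.303% to 0.426%. In kinesin-8 KIF18B held 75.6% to 76.5% and KIF18A 23.5% to 24.4%. In kinesin-13 KIF2C held 58.8% to 60.6% and KIF2A 36.7% to 38.4%. The share of KIF1C was 60.0% and 61.1% in PBS and 58.4% and 57.9% with nanoparticles, and that of KIF4A in kinesin-4 was 74.1% and 73.3% in PBS and 72.4% and 72.0% with nanoparticles. Both shares were lower in each nanoparticle library, by a small margin, and were not tested. They are examples, since other shares also differed in both libraries. The share of KIF26A in kinesin-11 was 60.7% and 68.2% in PBS and 55.9% and 55.2% with nanoparticles. That of KIF21A in kinesin-4 was 19.8% and 20.2% in PBS and higher, 20.5% and 21.3%, with nanoparticles.

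**Figure D2:**
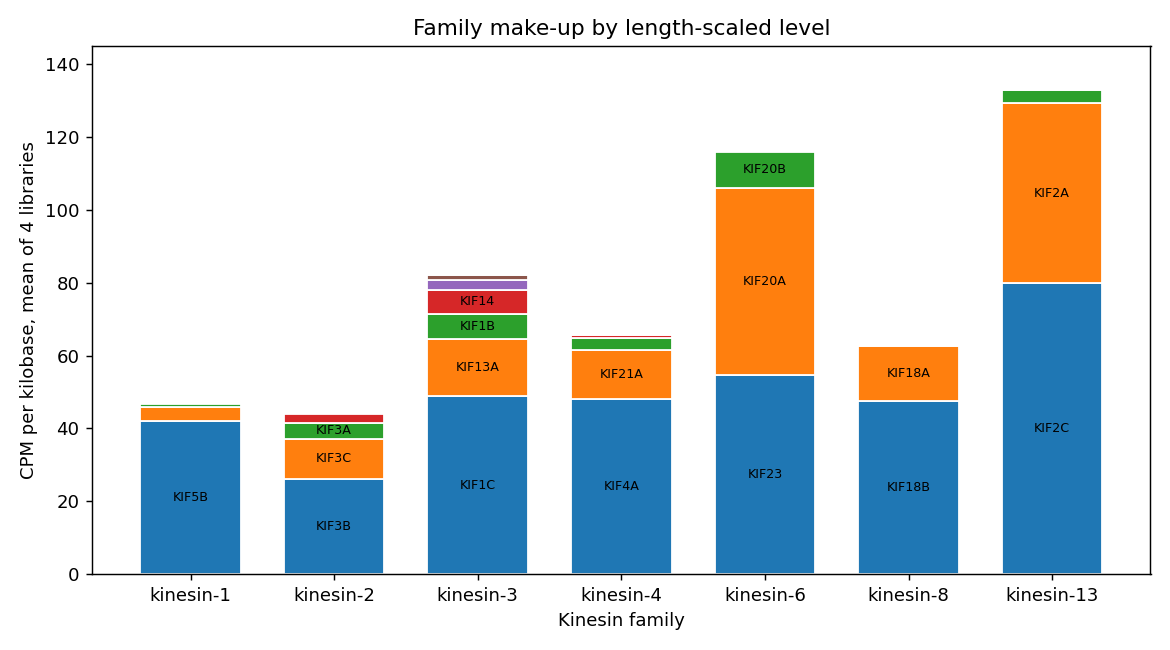
Stacked bars of CPM per kilobase, mean of 4 libraries, for 7 kinesin families; each block is a gene, ordered from the most abundant at the bottom, and colours give that order only. KIF5B fills most of kinesin-1, and KIF23 and KIF20A are near equal in kinesin-6.

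The other 5 members had too few counts to be tested. KIF2B, a depolymerase of early mitosis, had 0 counts in all 4 libraries, which allows up to 0.120 to 0.135 CPM in a library (3 counts, counting error only). KIF6 had 0, 0, 0 and 3 counts, KIF19, a motor that limits cilium length, 0, 1, 0 and 0, and KIF12 2, 1, 0 and 2 in PBS replicates 1 and 2 and nanoparticle replicates 1 and 2. KIF4B had 2, 3, 2 and 4 counts, against 205.6 to 211 CPM for KIF4A. The KIF4B transcript matches that of KIF4A at 95.3% of 4359 aligned bases, so reads of the pair can be confused or set aside and the KIF4B counts are uncertain. The KIF4B window printed above holds the same ATTGG and TTTGAA pair as KIF4A, 24 bases apart in each, shifted so that TTTGAA begins at position 4 counted from the RefSeq start, against 34 bases before it in KIF4A.

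No kinesin passed the test between nanoparticle and PBS. Of 34 tested members, 0 had a Benjamini-Hochberg adjusted p under 0.05 in edgeR's quasi-likelihood test over 15778 genes, of which 2.58% passed (1.75% higher and 0.83% lower). The lowest adjusted p was 0.152, for KIF18B. An unadjusted p under 0.05 was found for 11 members, 9 with a positive and 2 with a negative log2 fold change, against 16.8% of all genes in either direction and 9.18% in the positive one. The fold changes leaned to 1 side: 28 of the 34 were above 0, against 50.2% of all genes tested, and both nanoparticle libraries exceeded both PBS libraries for 21 members, against 23.7%. Both lay below for 4 members, against 23.2%, and the groups overlapped for 9. The median log2 fold change was 0.075 over the tested kinesins and 0.00056 over all genes tested. By group it was 0.061 for 11 mitotic, 0.088 for 13 transport and 0.084 for 10 other kinesins. By DESeq2's Wald test 0 kinesins passed as well, with 0 at an unadjusted p under 0.05. Members such as KIF7, KIF9, KIF13B and KIF26A were given no adjusted p by DESeq2 and so could not pass there.

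**Figure D3:**
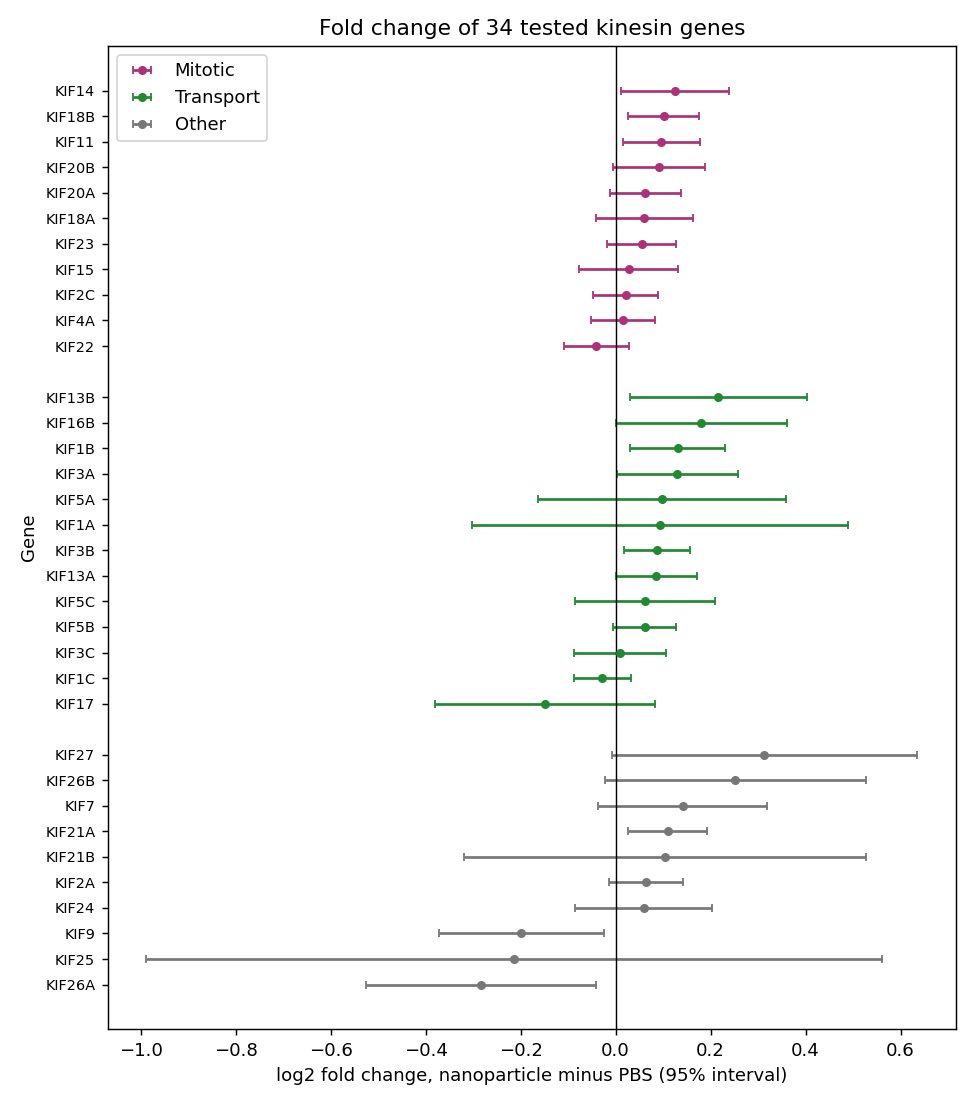
Log2 fold change, nanoparticle minus PBS, with its 95% interval for the 34 tested kinesins, by group. Intervals are narrow for abundant genes and wide for KIF25, KIF1A and KIF21B; 28 points lie right of 0 and 11 intervals leave it out.

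The intervals show how closely each fold change was fitted in these 4 libraries. Each is a single-gene 95% interval from the edgeR fit, with no allowance for the number of genes. If the libraries are technical repeats, the spread between cultures is not covered, and the trend with transcript length is not covered either. With that trend removed, the log2 fold change of KIF1C was -0.097, outside its interval of -0.087 to 0.032. For all 11 tested mitotic kinesins it stayed within a 1.2-fold change in either direction, with outer bounds of 0.927-fold and 1.18-fold. The same held for 8 of 13 transport kinesins, and all 13 stayed within 1.5-fold. Of the other kinesins 3 of 10 stayed within 1.2-fold and 8 within 1.5-fold. The exceptions at 1.5-fold were KIF27, with an upper bound of 1.55-fold, and KIF25, with a lower bound of 0.504-fold at a level of 0.440 to 0.626 CPM.

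With 2 libraries a group, single libraries weighed on many fold changes. Without PBS replicate 2 the log2 fold change of KIF11 was 0.041, that of KIF14 0.050 and that of KIF1B 0.068, and without PBS replicate 1 they were 0.15, 0.20 and 0.19. Without nanoparticle replicate 2 it was 0.014 for KIF23, 0.022 for KIF2A and 0.039 for KIF13A, and without nanoparticle replicate 1 it was 0.023 for KIF20A and -0.0075 for KIF1C. Without PBS replicate 1 it was 0.064 for KIF18B, 0.066 for KIF7, 0.010 for KIF24, -0.020 for KIF22 and -0.12 for KIF9. Some genes stayed within 1.5 times of their own log2 fold change from all 4 libraries when any library was left out. Among them were KIF3B (0.074 to 0.098), KIF5B (0.043 to 0.081), KIF21A (0.078 to 0.14), KIF13B (0.16 to 0.27) and KIF26A (-0.35 to -0.22).

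Among motors that shape the spindle, KIF11 slides antiparallel microtubules and drives the poles apart. It was at 131 and 121 CPM in PBS replicates 1 and 2 and at 133 and 136 CPM in nanoparticle replicates 1 and 2 (log2 fold change 0.096, SE 0.039, edgeR adjusted p = 0.21). Both nanoparticle libraries were above both PBS libraries, and PBS replicate 1 lay closer to them than to PBS replicate 2. KIF11 lies on chromosome 10 from 92593286 to 92655395. KIF15, which can take over from KIF11, was at 48.9 and 46.3 CPM in PBS and 48.5 CPM in each nanoparticle library, so the groups overlapped. KIF18B, which binds growing microtubule tips and shortens them, was at 123 and 129 CPM in PBS and 136 and 134 CPM with nanoparticles (log2 fold change 0.10, SE 0.036, edgeR adjusted p = 0.152). The groups did not overlap, and this was the lowest p among the 34 tested members of the naming rule. KIF18B lies on chromosome 17 from 44924709 to 44947711 (GRCh38, GENCODE 29). With trends of length and GC content removed it passed (log2 fold change 0.13, edgeR adjusted p = 0.0435), the only kinesin to pass in any of 14 alternatives, where 1.64% of genes passed. KIF18A, which aligns chromosomes, was at 50.8 and 54.1 CPM in PBS and 54.3 and 55.2 CPM with nanoparticles, nearly touching.

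The abundant chromosome motors differed little between groups. KIF2C, which removes faulty attachments at kinetochores, was at 233 and 223 CPM in PBS and 233 and 229.7 CPM with nanoparticles (log2 fold change 0.021, SE 0.033). KIF4A, which condenses chromosomes and sets the length of the central spindle, was at 211 and 206 CPM in PBS and 211 and 210.3 CPM with nanoparticles (log2 fold change 0.015, SE 0.032). The groups overlapped for both genes, and the interval of KIF4A ran from 0.965-fold to 1.06-fold. KIF22 was the mitotic kinesin with a negative log2 fold change (-0.041, SE 0.033), at 197 and 192 CPM in PBS and 189 CPM in each nanoparticle library. Its nanoparticle libraries lay just below both PBS libraries, nearer to PBS replicate 2 than the PBS libraries lay to each other.

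Of the cytokinesis motors, KIF20A, which brings regulators to the midzone, was at 163 and 159 CPM in PBS and 173 and 164 CPM with nanoparticles (log2 fold change 0.063, SE 0.036). KIF23, the motor subunit of centralspindlin, was at 199 and 200.1 CPM in PBS and 202 and 213 CPM with nanoparticles (log2 fold change 0.055, SE 0.035). For both genes the nanoparticle libraries were the higher, and 1 of them lay close to PBS. KIF14, which recruits citron kinase, was at 49.1 and 44.3 CPM in PBS and 49.7 and 52.1 CPM with nanoparticles (log2 fold change 0.12, SE 0.054, edgeR adjusted p = 0.245). Its PBS replicate 1 was almost level with nanoparticle replicate 1. KIF20B, which acts late in abscission, was at 60.5 and 60.8 CPM in PBS and 62.3 and 66.9 CPM with nanoparticles. In RNA from a whole culture, a difference in the number of mitotic cells and a difference in RNA per cell cannot be told apart.

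In the transport group the main cargo motor KIF5B, on chromosome 10 from 32009010 to 32056431, was at 243 and 240.0 CPM in PBS and 249 and 255 CPM with nanoparticles (log2 fold change 0.061, SE 0.032, edgeR adjusted p = 0.34). KIF1C, which moves integrin-bearing vesicles and lies on chromosome 17 from 4997948 to 5028401, was at 391 and 390.4 CPM in PBS and 378 and 389 CPM with nanoparticles (log2 fold change -0.028, SE 0.029, edgeR adjusted p = 0.687). The nanoparticle libraries were higher for KIF5B and lower for KIF1C, by a small margin in each. KIF5C overlapped between groups (25.1 to 28.6 CPM over the libraries), and KIF5A ranged from 5.19 to 5.88 CPM.

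The smallest p of the transport group belonged to KIF1B, a motor of synaptic vesicle precursors and mitochondria. It was at 72.5 and 66.4 CPM in PBS and 73.8 and 78.1 CPM with nanoparticles (log2 fold change 0.13, SE 0.048, edgeR adjusted p = 0.158). PBS replicate 1 lay nearer to nanoparticle replicate 1 than to PBS replicate 2. KIF3B was at 156 and 154 CPM in PBS and 165 and 164 CPM with nanoparticles (log2 fold change 0.088, SE 0.034, edgeR adjusted p = 0.181), a separation wider than either group's own gap. KIF3A, its partner, was at 26.7 and 27.6 CPM in PBS and 29.5 and 29.9 CPM with nanoparticles (log2 fold change 0.13, SE 0.061). Both partners thus had higher nanoparticle libraries, while KIF3C overlapped between groups (log2 fold change 0.0093, SE 0.046).

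KIF13A, which carries recycling endosomes, was at 91.3 and 89.4 CPM in PBS and 92.7 and 99.0 CPM with nanoparticles (log2 fold change 0.086, SE 0.041). KIF13B, its relative, was at 12.5 and 11.5 CPM in PBS and 13.4 and 14.4 CPM with nanoparticles (log2 fold change 0.22, SE 0.090, edgeR adjusted p = 0.218). KIF16B, a motor of early endosomes, was at 12.8 and 12.5 CPM in PBS and 14.9 and 13.8 CPM with nanoparticles (log2 fold change 0.18, SE 0.087). These 3 endosome and membrane motors did not overlap between groups, and none passed. KIF17 had a negative log2 fold change (-0.15, SE 0.11), with PBS replicate 2 alone at 11.4 CPM and the other libraries between 8.92 and 9.48 CPM. KIF1A ranged from 2.25 to 3.12 CPM and overlapped between groups.

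The other kinesins held both the largest positive and the largest negative fold changes, at low levels. KIF26A, which lacks motor activity and acts in signalling, was at 7.06 and 7.74 CPM in PBS and 6.20 and 5.95 CPM with nanoparticles (log2 fold change -0.28, SE 0.12, edgeR adjusted p = 0.213). KIF9, a motor of motile cilia, was at 17.8 and 15.9 CPM in PBS and 14.4 and 15.0 CPM with nanoparticles (log2 fold change -0.20, SE 0.084, edgeR adjusted p = 0.225). The groups did not overlap for these genes. Exons of KIF9 overlap those of KLHL18 and of KIF9-AS1 on the opposite strand, and KIF9-AS1 was at 3.24 to 4.30 CPM. Whether reads were counted by strand is not stated, so reads of such a pair may not be told apart. In all, exons of 14 kinesins overlap an opposite-strand gene in GENCODE 29. Levels of such genes differed widely. UBAP1, opposite KIF24, was at 72.8 to 73.9 CPM and TICRR, opposite KIF7, at 37.3 to 39.3 CPM, while KIF25-AS1 had 0 counts.

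KIF21A, which stops microtubule growth at the cell cortex near adhesions, was at 85.6 and 86.1 CPM in PBS and 90.6 and 94.6 CPM with nanoparticles (log2 fold change 0.11, SE 0.040, edgeR adjusted p = 0.157). KIF2A, a depolymerase of spindle poles and neurites, was at 125 and 121 CPM in PBS and 125 and 132 CPM with nanoparticles (log2 fold change 0.064, SE 0.038). KIF21A stood clear of its PBS libraries, whereas KIF2A in nanoparticle replicate 1 was level with PBS replicate 1. With the trend of transcript length removed, the log2 fold change was 0.055 for KIF21A and 0.076 for KIF2A. KIF7, a regulator of Hedgehog signalling at the tip of the cilium, was at 13.2 and 14.7 CPM in PBS and 15.8 and 15.0 CPM with nanoparticles (log2 fold change 0.14, SE 0.085). KIF24, a depolymerase at centrioles that restrains cilium formation, was at 21.2 and 22.7 CPM in PBS and 22.8 and 22.9 CPM with nanoparticles (log2 fold change 0.060, SE 0.069). Neither cilium-related gene passed. KIF27 (3.13 to 4.54 CPM) and KIF26B (4.65 to 6.32 CPM) had log2 fold changes of 0.31 (SE 0.15) and 0.25 (SE 0.13), and KIF21B and KIF25 overlapped between groups.

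Kinesins have long transcripts, and fold change went with transcript length over all genes. The median length of the tested kinesins was 5496.5 bases (3723 for mitotic and 6103 for transport kinesins), against 2856.5 bases for all genes tested. Over 10 length bins of 11080 genes of at least 5 CPM in mean, the median log2 fold change ran from -0.063 in the shortest to 0.082 in the longest, and of 30 kinesins of that level 5 fell in the longest bin and 10 in the bin next to it. Once each library's trend with length was taken out, the median of the tested kinesins was 0.040, that of the mitotic group 0.042 and that of the transport group 0.035. Above 0 were 25 of 34 kinesins, against 49.7% of all genes. With length and GC trends removed the count was 23, against 49.7%. An unadjusted edgeR p under 0.05 was found for 4 of 34 kinesins with length removed and for 3 with both removed. The share of all genes was not computed for those fits, so these counts have no scale. In the reported fit that share was 16.8%. KIF1B went from 0.13 to 0.035 and KIF5B from 0.061 to 0.017 on the log2 scale when length was removed, while KIF18B, with a transcript of 2745 bases, stood at 0.11. KIF1C also moved down and, being below 0 already, went further from 0, from -0.028 to -0.097 (edgeR adjusted p = 0.095). That was the lowest p of a kinesin in the fit with length removed, where 1.44% of genes passed. How far length accounts for the lean in the kinesins was not tested beyond these values.

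**Figure D4:**
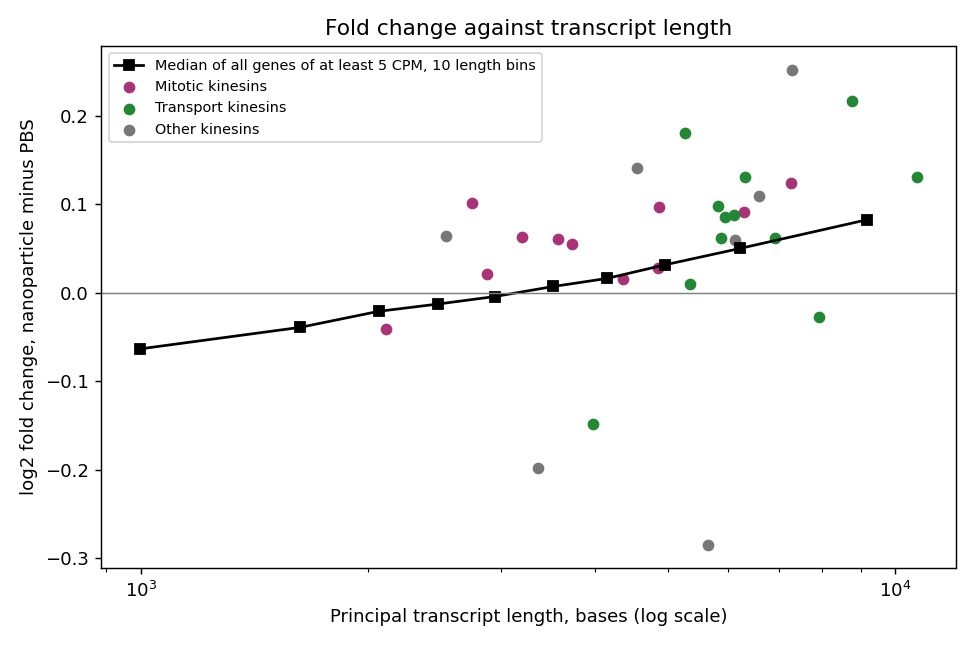
Log2 fold change, nanoparticle minus PBS, against principal transcript length on a log axis for 30 kinesins of at least 5 CPM; the black line joins the medians of all genes in 10 length bins. The line climbs from -0.063 to 0.082, and most kinesins lie at lengths where it is above 0.

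Kinesins outside the naming rule and the partners of kinesins were read from lists of textbook members. Of KIFC1, KIFC2, KIFC3 and CENPE, 0 of 4 passed. CENPE, the kinetochore motor of congression, was at 86.8 and 88.9 CPM in PBS and 94.7 and 98.9 CPM with nanoparticles (log2 fold change 0.14, SE 0.040, edgeR adjusted p = 0.0687), and without the length trend its log2 fold change was 0.063. KIFC1, the minus-end motor that gathers extra centrosomes, was at 204 and 195 CPM in PBS and 210 and 204.3 CPM with nanoparticles, so PBS replicate 1 nearly met nanoparticle replicate 2. Among 18 light chains, accessory proteins and cargo adaptors 1 passed, higher, with a list median of 0.0010. It was SPAG9, the adaptor JIP4, at 393 and 394 CPM in PBS and 430.2 and 448 CPM with nanoparticles (log2 fold change 0.16, SE 0.029, edgeR adjusted p = 0.00419), and it passed again once length was taken out (adjusted p = 0.0214). Without nanoparticle replicate 2 SPAG9 did not pass (edgeR adjusted p = 0.192). KIFAP3, the subunit that completes the KIF3A and KIF3B motor, had a log2 fold change of -0.016 (SE 0.061), and the light chains KLC1 and KLC2 had -0.082 and 0.053.

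Of 25 spindle and midzone partners 1 passed, lower, and the list median was 0.0027. AURKB, the kinase that phosphorylates KIF2C and KIF23, fell from 192 and 199 CPM in PBS to 177 and 179 CPM with nanoparticles (log2 fold change -0.13, SE 0.034, edgeR adjusted p = 0.0367), but did not pass once length was taken out (log2 fold change -0.083, adjusted p = 0.276), and not with DESeq2 (adjusted p = 0.105) or without nanoparticle replicate 1 (edgeR adjusted p = 0.182) or 2 (0.252). AURKA (log2 fold change 0.0027) and TPX2 (-0.034), which work with KIF11 and KIF15, did not pass. With length and GC trends removed, HMMR was the 1 spindle partner to pass, lower (log2 fold change -0.13, edgeR adjusted p = 0.0436). In the reported edgeR fit it did not pass (log2 fold change -0.087, adjusted p = 0.204). Of 21 dynein and dynactin genes, the motor of the opposite direction, DYNC1H1 passed, higher (list median 0.0091). It rose from 794 and 788 CPM to 933 and 948 CPM (log2 fold change 0.25, SE 0.023, edgeR adjusted p = 2.07e-06). Its transcript has 20003 bases, and after removal of the length trend alone it did not pass (log2 fold change 0.093, edgeR adjusted p = 0.06), whereas it passed after removal of length and GC trends together (log2 fold change 0.11, edgeR adjusted p = 0.0125). None of 12 tubulins passed (list median -0.039). An unadjusted edgeR p under 0.05 was found for 5 of them, 2 higher and 3 lower, against 16.8% of all genes. The 2.58% of genes that passed overall sets the scale for the counts past the threshold in these lists. Without PBS replicate 1, and likewise without PBS replicate 2, no gene passed, SPAG9, AURKB and DYNC1H1 included.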

How the data were processed

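Polyadenylated RNA of H1299 cells was sequenced in 4 libraries, 2 per group, grouped by the treatment label, which was followed although both nanoparticle titles include the word control. The deposited files hold unnormalised read counts per Ensembl gene. The submitters' processing notes name the build GRCh38 and the tools HTSeq 2.0.2, STAR 2.7.6a, cutadapt 3.5, Picard and bcl2fastq 2.20. Neither the annotation release nor the strand setting of counting is stated there. Reads given to no gene (13.7% to 14.8%) were left out.

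A name table gave symbols for 61369 rows and GENCODE 29 for 159 more, and gene type, coordinates and length came from GENCODE 29. Genes were filtered with filterByExpr, scaled by TMM and tested with edgeR 4.0.16 (glmQLFit, glmQLFTest, R 4.3.3), two-sided, Benjamini-Hochberg adjusted over 15778 genes, threshold 0.05. Standard errors came from the coefficient and its F statistic. Replicates differed beyond sampling noise (chi-square per degree of freedom 1.78 and 1.95). Length and GC trends were removed per library by robust regression (MASS 7.3.60.0.1) of its deviation from the gene mean on a natural spline with 4 degrees of freedom. The members and lists were chosen with earlier results of these data known. Named members were the 5 most abundant and the 3 of smallest p in each group, and the rest were accounted for with fewer statistics. Of the partner lists, members past the threshold are named by rule, and CENPE, KIFC1, KIFAP3, KLC1, KLC2, AURKA, TPX2, HMMR, PRC1, NUSAP1 and TUBB2A were named after their values were seen. Proteins were not analysed here. Alternatives were other scalings, filters, DESeq2 1.42.0, limma-voom (limma 3.58.1), a replicate block, length and GC trends, and leaving out each library. On simulated counts for nanoparticle against PBS (15742 genes tested), the test found 64% of genes changed 1.2-fold and 96% of those changed 1.5-fold. Of its calls 4.26% were false. Only genes with many counts were changed, with the same replicate spread for every gene and no length trend. The recovery thus does not cover rare members such as KIF25, or data with such a trend. Figures were drawn with matplotlib 3.10.9.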

Additional observations from a re-analysis of the deposited data

How the results depend on the processing

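Over 14 alternatives the count of kinesins past the threshold was 0, except with length and GC trends removed, where it was 1, higher (KIF18B, log2 0.13). The median log2 fold change of the tested kinesins was 0.040 with the length trend removed and 0.039 with length and GC removed. For mitotic kinesins it was 0.028 with both removed. For transport kinesins it was 0.035 and 0.049. Leaving out a library gave medians of 0.053 to 0.081 for all, 0.040 to 0.073 for mitotic and 0.068 to 0.098 for transport kinesins. The lowest median for all kinesins came without nanoparticle replicate 2. The sign turned for KIF4A with the length trend removed (-0.0076), with length and GC removed (-0.0026) and without PBS replicate 2 (-0.0032, in a range up to 0.032 over the left-out libraries), for KIF5B with length and GC removed (-0.0032), and for KIF2C without PBS replicate 2 (-0.0087, in a range up to 0.049). In all 10 of 34 tested kinesins turned in sign in at least 1 alternative, KIF15, KIF17, KIF1A, KIF20B, KIF21B, KIF3C and KIF5C being the others, with no turned value past the threshold (lowest adjusted p 0.80). KIF20B turned with length and GC removed (-0.0099). The cause was not tested. Without a low-count filter 0 of all genes passed. That alternative and those without a PBS library say nothing of single kinesins. Leaving out a library puts 1 sample in an arm, which is assumed to vary like the other group. Over all genes 407 passed in the reported fit, 121 with DESeq2, 227 with the length trend removed, 259 with length and GC removed, 200 without nanoparticle replicate 1 and 76 without nanoparticle replicate 2.

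With the replicate number as a block 0 kinesins passed, and the median log2 fold changes were 0.075, 0.061 and 0.087 for all, mitotic and transport kinesins. Same-numbered libraries hardly deviated together over genes above 5 CPM (correlation 0.036). The mitochondrial share, however, was the higher in replicate 2 of both the PBS (0.310% and 0.428%) and the nanoparticle libraries (0.371% and 0.512%). Whether the numbers mark pairs of libraries was not settled. The block moved the count over all genes from 407 to 759. Depth limits the rare members most: the interval of KIF25 ran from 0.504-fold to 1.47-fold.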

Other observations

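PRC1, the midzone bundler that recruits KIF4A and KIF20A, was at 1.26, 1.30, 1.16 and 0.924 CPM in PBS replicates 1 and 2 and nanoparticle replicates 1 and 2. NUSAP1, another spindle gene, was at 0.360, 0.358, 0.520 and 0.482 CPM in the same order. In GENCODE 29 57.6% of the exonic bases of PRC1 and 62.2% of those of NUSAP1 also belong to another gene on the same strand, so the counts of both genes may miss shared reads and do not give their expression level. The gene that shares exons with PRC1 was itself at 2.43 to 4.06 CPM. Of the kinesins, KIF2A (8.97%) and KIF1B (1.65%) share exonic bases in this way. The tubulin TUBB2A, at 80.3 and 77.8 CPM in PBS and 87.4 and 84.2 CPM with nanoparticles, did not pass in the reported edgeR fit (log2 fold change 0.12, adjusted p = 0.135) and passed with the length trend removed (0.16, adjusted p = 0.049). KIF23-AS1, antisense to KIF23, ranged from 1.44 to 1.53 CPM.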
